A study of Mus musculus with 18 samples.

Results

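The heat shock and chaperone genes were followed in the kidney cortex of mice aged 2 months, on 18 arrays of 15 animals. There were 3 mice of each inbred strain, B6, NZW, BALB/c, DBA1, and 129/svj. Every mouse had been challenged with antibodies against the glomerular basement membrane (anti-GBM), which provoke an immune nephritis. The study classes B6 and BALB/c as resistant and NZW, DBA1, and 129/svj as sensitive. No unchallenged mice are among the arrays, so differences that the inbred strains carried before the challenge and differences in their response cannot be told apart. Each numbered sample was taken as 1 mouse. In BALB/c, DBA1, and 129/svj a further array carries a number of its own in its title but a description as a replicate of mouse 1, so it was treated as a second hybridisation and averaged with the first, although the labels do not state this outright.

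The members were chosen by gene symbol, without regard to their values: every probe whose symbol begins with Hsp and a digit or a family letter, with Dnaja, Dnajb, or Dnajc, with Cct2 to Cct8, with Bag1 to Bag6, or with Pdia, leaving out Hspg2, a basement membrane proteoglycan. In the table that holds B6 and NZW this gave 81 of 34509 gene symbols, on 125 of 46643 probes. The table that holds BALB/c, DBA1, and 129/svj names no genes, and its members are the 55 of 46147 rows (48 symbols) that carry the same search key, the array maker's transcript identifier, as such a probe. For 51 of the 125 probes no row carried the key, and these were read in B6 and NZW only. In 20 of the 55 rows the key belonged to several probes of the other table, while 35 rows were paired with exactly 1 probe. Some symbols are old: Hsp110 is now Hsph1, Dnajb10 is Dnajb2, and Dnajc3a is Dnajc3. The prefix also caught Hspc171, now Tmem208, which is not named as a chaperone, and the Hspe1 entry is the pseudogene Hspe1-ps2.

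Chaperones bind unfolded proteins and keep them from aggregating while they reach their final shape. Hsp70 proteins do this in cycles of ATP hydrolysis that J proteins (the Dnaj genes) start and that nucleotide exchange factors such as the BAG proteins and Hsp110 end, Hsp90 finishes kinases and receptors, small heat shock proteins hold clients without ATP, chaperonins enclose them in a ring, and protein disulfide isomerases form their disulfide bonds in the endoplasmic reticulum. When unfolded proteins accumulate in the cytosol, heat shock factors bind the promoters of the inducible members, and in the kidney heat shock proteins are known to rise in tubules after ischemic or toxic injury.

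Levels are given as the log2 of the background-corrected and quantile-normalized signal, and the tables were normalized separately, so strains are compared within a table. A probe was called detected in a mouse where its detection p-value against the negative controls was 0.05 or less, and it was tested where it was detected in at least 3 mice. Of the 125 probes, 71 were tested, for 58 genes, while 44 were detected in no mouse of B6 or NZW and 10 in 1 or 2 mice. Of the 55 rows, 27 were tested, for 26 genes. Between 54.4% and 60.0% of the chaperone probes were detected on an array of B6 or NZW, where 33.8% to 36.4% of all probes were, and 41.8% to 50.9% on an array of the other table, where 30.5% to 34.1% of all probes were. Genes without a tested probe in B6 and NZW included Dnaja1, Cct5, Cct7, and Hspa1b, and an undetected probe says nothing more about its gene. In B6 and NZW all 6 proximal tubule genes and all 4 podocyte genes looked up were detected, as the tissue label would have it. Of genes of other cells, the T cell genes Cd3e and Cd3g and the muscle gene Actn2 were detected in 6 of 6 mice and the fat gene Adipoq in 5, whereas the B cell gene Ms4a1 and the muscle gene Ckm were not tested for want of detection.

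In 8 of the 58 chaperone genes tested, at least 1 probe differed between B6 and NZW. Signals of Dnajc12, Pdia2, Dnajc19, Dnajc18, and Dnajc16 were lower in B6, and those of Hspb6, 1 probe of Dnajc5, and 1 probe of Hsp90ab1 were higher. In limma with Benjamini-Hochberg adjustment over all tested probes, 9 of the 71 chaperone probes passed an adjusted p of 0.05 (3 higher and 6 lower in B6), which is 12.7%, where 18.8% of all 16766 tested probes passed. The median difference of the 71 probes was -0.01 on the log2 scale, that of all tested probes -0.04. In tissue RNA, fewer cells of a type and less RNA per cell cannot be told apart.

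**Figure D1:**
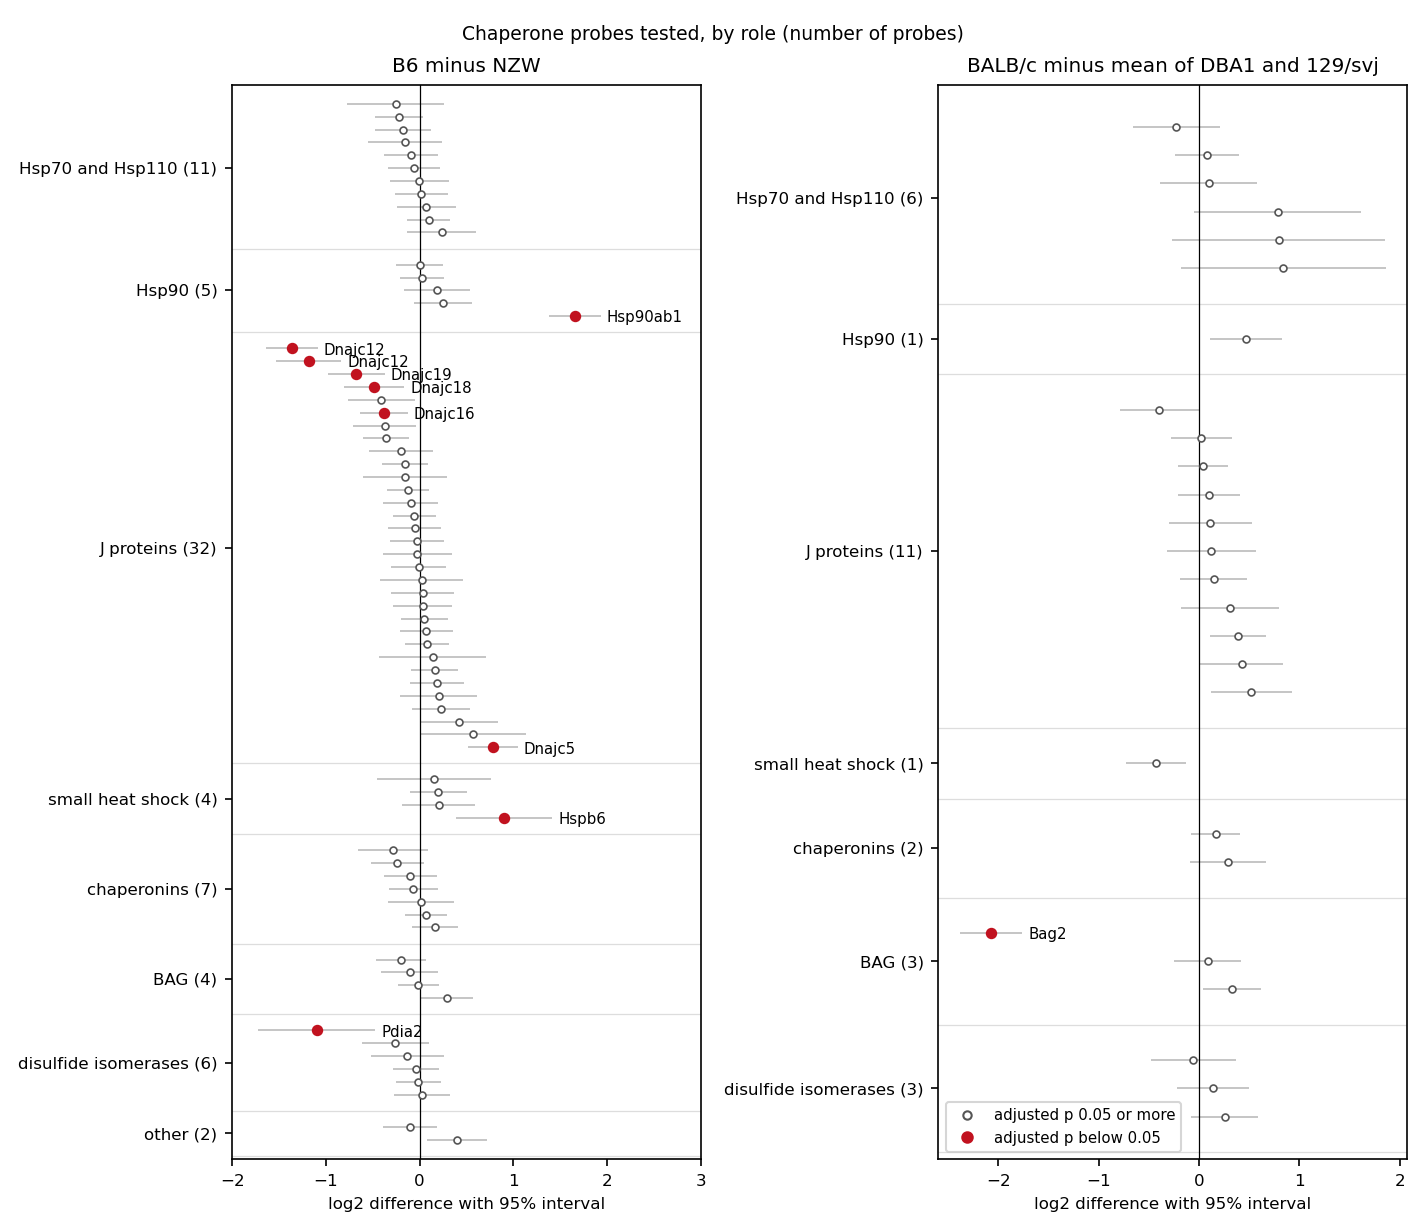
Log2 difference (horizontal axis) of each tested chaperone probe, grouped by role with the number of probes in brackets, for B6 minus NZW on the left and BALB/c minus the mean of DBA1 and 129/svj on the right. Points are the limma estimates, bars the 95% intervals, and filled points the probes with an adjusted p below 0.05: 9 of 71 on the left and 1 of 27 on the right.

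None of the tested probes of Hsp110, Dnajb1, Hspb1, Bag3, and Hspa1a, genes that heat shock induces, passed the threshold between B6 and NZW. Hsp110, an exchange factor of Hsp70, had levels of 11.50, 11.54, and 11.79 in the NZW mice and 11.37, 11.73, and 11.72 in the B6 mice. The strains overlapped, with a difference of -0.00 (95% interval -0.32 to 0.31, adjusted p = 0.992 from limma). Dnajb1, the J protein that partners Hsp70 in the heat shock response, differed by -0.16 (95% interval -0.41 to 0.09), and Hspb1, the small heat shock protein Hsp27, by 0.20 (95% interval -0.18 to 0.59). Bag3, which links Hsp70 to autophagy, differed by -0.11 (95% interval -0.41 to 0.19). Hspa1a, a stress-inducible Hsp70, was at 5.82, 5.85, and 5.62 in NZW and at 5.43, 5.52, and 5.80 in B6, and differed by -0.18 (95% interval -0.48 to 0.12). Its other probe, ILMN_1245039, and probe ILMN_2530672 of Hspa1b were each detected in 2 NZW mice and in no B6 mouse, too few to be tested. Probe ILMN_1215734 of Hspa1b, also not tested, was detected in 1 B6 mouse and in no NZW mouse. None of the 11 Hsp70 and Hsp110 probes tested passed the threshold, or an unadjusted p of 0.05, where 18.8% and 32.3% of all tested probes did, and their differences ran from -0.26 to 0.24. Among them, the constitutive Hsp70 gene Hspa8 was read by 3 probes at -0.26, -0.06, and 0.10, none with an interval that excludes 0. Mitochondrial Hspa9 differed by -0.22 (95% interval -0.47 to 0.03), and Hspa5, the Hsp70 of the endoplasmic reticulum, by -0.16 (95% interval -0.55 to 0.24).

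Several other chaperones did not pass the threshold between B6 and NZW. Hsp90aa1, the inducible cytosolic Hsp90, differed by 0.24 (95% interval -0.06 to 0.55), and Hsp90b1, its counterpart in the endoplasmic reticulum, by 0.18 (95% interval -0.16 to 0.53). The 7 chaperonin probes tested ran from -0.28 to 0.17, with Hspd1, the mitochondrial Hsp60, at -0.28 and -0.07 for its 2 probes, and none of the 7 had an unadjusted p below 0.05, where 32.3% of all tested probes did. Pdia3, Pdia4, and Pdia6, disulfide isomerases of the endoplasmic reticulum, differed by -0.01, 0.03, and -0.13, and none of them passed the threshold.

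Dnajc12 showed the largest difference among the tested J proteins of B6 and NZW. Of the 32 J protein probes tested, 1 was higher and 5 were lower in B6, a share (18.8%) equal to that of all tested probes, and 11 (34.4%) had an unadjusted p below 0.05, where 32.3% of all tested probes did. Dnajc12 encodes a cytosolic J protein that serves the folding of the aromatic amino acid hydroxylases. Probe ILMN_1229993 was at 12.40, 12.22, and 12.35 in NZW and at 11.05, 10.77, and 11.06 in B6. A second probe, ILMN_2538061, was at 10.00, 9.43, and 9.68 in NZW and at 8.49, 8.44, and 8.63 in B6. On both probes every B6 mouse lay below every NZW mouse by more than the spread within either strain. The differences were -1.36 (SE 0.12, adjusted p = 9.27e-05 from limma) and -1.18 (SE 0.15, adjusted p = 0.000846 from limma), a 2.57-fold and a 2.27-fold lower signal in B6. The remaining Dnajc12 probe was not tested, and no row of the other table carried a key of this gene, so BALB/c, DBA1, and 129/svj cannot be added.

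Hsp90ab1, the constitutive cytosolic Hsp90, was read by 3 probes that did not give the same answer. On probe ILMN_1233733 the NZW mice were at 9.12, 9.02, and 9.25 and the B6 mice at 10.67, 10.96, and 10.73. The strains did not overlap, and the difference was 1.65 (SE 0.12, adjusted p = 2.77e-05 from limma), which makes the signal 3.15-fold that of NZW. On probe ILMN_1238221 the NZW mice were at 13.15, 13.36, and 13.34 and the B6 mice at 13.20, 13.35, and 13.30. On probe ILMN_1246650 the NZW mice were at 9.16, 9.01, and 9.20 and the B6 mice at 9.10, 9.19, and 9.15. Both of these probes overlapped between the strains, with differences of 0.00 (95% interval -0.25 to 0.25) and 0.03 (95% interval -0.21 to 0.26). The higher signal in B6 is therefore a property of 1 probe of 3, and what sets that probe apart was not tested.

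Dnajc5, which encodes cysteine string protein, a J protein of secretory vesicles, gave a like split between its 2 probes. On probe ILMN_2501026 the NZW mice were at 11.19, 11.18, and 10.90 and the B6 mice at 11.90, 11.84, and 11.88. All B6 mice were higher, by 0.78 (SE 0.12, adjusted p = 0.00189 from limma) or 1.72-fold. On probe ILMN_2671708 the NZW mice were at 11.37, 11.75, and 11.66 and the B6 mice at 11.69, 11.55, and 11.51. Here the strains overlapped and the difference was -0.01 (95% interval -0.30 to 0.28). In all, 11 genes had several tested probes: for 1 gene, Dnajc12, every tested probe passed the threshold, for 2 genes, Hsp90ab1 and Dnajc5, only 1 probe did, and for the other 8 none did.

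**Figure D2:**
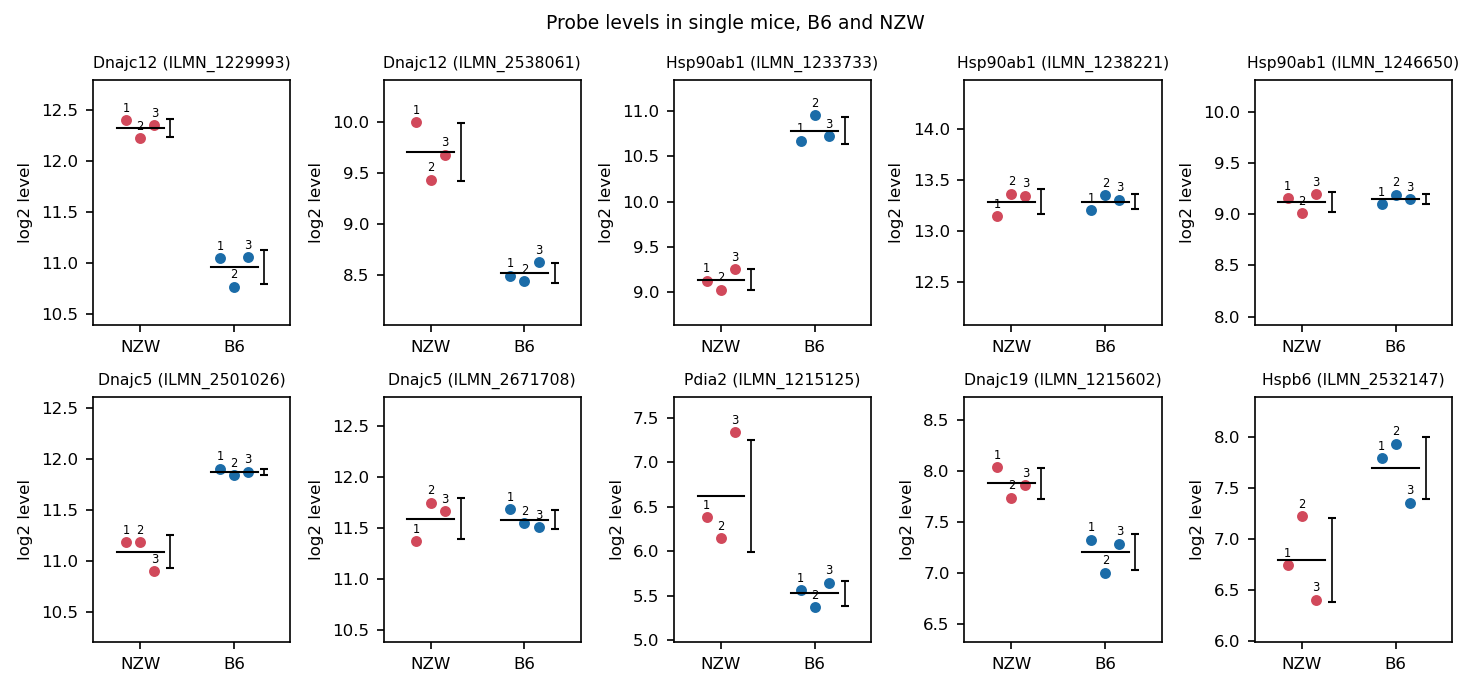
Log2 level (vertical axis) of 10 chaperone probes in each NZW and B6 mouse, with the number of the mouse at each point, the strain mean as a line, and the SD of 3 mice as a bar. Both Dnajc12 probes are lower in every B6 mouse, whereas 1 of 3 Hsp90ab1 probes and 1 of 2 Dnajc5 probes are higher in every B6 mouse and the others overlap.

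Pdia2, a disulfide isomerase best known from the pancreas, was at 6.39, 6.14, and 7.34 in NZW and at 5.56, 5.37, and 5.64 in B6. The lowest NZW mouse was above the highest B6 mouse, and mouse 3 of NZW stood apart from its strain. The difference was -1.10 (SE 0.27, adjusted p = 0.0249 from limma). Dnajc19, a J protein of the motor that imports proteins into mitochondria, was at 8.04, 7.74, and 7.86 in NZW and at 7.33, 7.00, and 7.28 in B6. All B6 mice were below all NZW mice, by 0.67 on average (SE 0.13, adjusted p = 0.00836 from limma). Hspb6, the small heat shock protein Hsp20 of smooth and cardiac muscle, was at 6.75, 7.23, and 6.41 in NZW and at 7.80, 7.93, and 7.36 in B6. The strains were separated by a narrow gap, with a difference of 0.90 (SE 0.22, adjusted p = 0.0240 from limma). Without background correction Pdia2 was at -0.54 and Hspb6 at 0.59, both still called, and Dnajc18 at -0.26, no longer called. The Dnajc18 difference was -0.48 (SE 0.14, adjusted p = 0.0449 from limma), that of Dnajc16 -0.38 (SE 0.11, adjusted p = 0.0451 from limma), just inside the threshold. The next probe outside it was 1 of Dnajb12, at -0.35 with an adjusted p of 0.0527 from limma. With mouse 1 of B6 or mouse 2 of B6 left out, 5 of the 9 calls were made. With mouse 1 of NZW or mouse 3 of B6 left out, 6 of the 9 were made. These fits hold fewer mice, and their shares of all tested probes passing are not given here. The lower counts are therefore not read as particular to the chaperones. The probes of Dnajc12, Hsp90ab1, Dnajc5, and Dnajc19 were called with each mouse left out in turn.

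Markers of kidney cells and of tubule injury also differed between B6 and NZW, and their part in the chaperone differences was not tested. All 4 tubule injury probes passed the threshold in limma, Lcn2 at 1.80 and Spp1 at 0.69 higher in B6 and Havcr1 at -2.77 and Krt18 at -0.71. Their summed signal on the linear scale, of which Spp1 was the brightest, was 8577, 6672, and 7425 in NZW and 15465, 15439, and 7893 in B6. Of 10 proximal tubule probes 3 passed and were lower in B6, 1 probe each of Lrp2, Cubn, and Aqp1. The other Lrp2 probe, at -0.16, and the other Aqp1 probe, at -0.26, did not pass. The proximal tubule sums were 65208 to 71191 in NZW and 54178 to 62862 in B6, with Slc34a1 the brightest. None of the 7 macrophage probes passed (1 had an unadjusted p below 0.05), with sums from 1596 to 2255 in NZW and from 1889 to 4314 in B6 and Lyzs the brightest, with Adipoq leading a muscle and fat sum of 701 in mouse 2 of B6 and of 149.7 to 205 in the other 5 mice, and none of the 4 neutrophil probes passed or had an unadjusted p below 0.05.

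In the other table, the chaperones of BALB/c differed from those of DBA1 and 129/svj in 1 gene, Bag2. Of the 27 rows, 1 passed the threshold against the mean of DBA1 and 129/svj, which is 3.70%, where 5.99% of all 15818 tested rows passed, and 8 of the 27 (29.6%) had an unadjusted p below 0.05, where 18.8% of all tested rows did. The median difference of the 27 rows was 0.14 and that of all tested rows 0.01, and 22 of the 27 were above 0. With 27 rows a share moves by 3.70% for each row, and no difference from the table as a whole is read from either count.

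Several constitutive and inducible members tested here did not pass: the differences were 0.08 for Hspa8 and for Bag3, 0.14 for Pdia3, 0.26 for Pdia6, and -0.06 for Pdia4.

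Bag2 encodes a BAG protein that inhibits the ubiquitin ligase CHIP, a partner of Hsp70. Its row was at 5.12, 4.85, and 5.00 in the BALB/c mice, at 7.13, 7.32, and 7.05 in DBA1, and at 6.93, 6.74, and 7.23 in 129/svj. It was detected in none of the BALB/c mice and in all 6 mice of the other strains, so that only a bound can be given. Against the lowest detected signals on the BALB/c arrays, Bag2 was at least 2.80-fold higher in DBA1 and at least 2.43-fold higher in 129/svj (adjusted p = 2.71e-05 and 4.09e-05 from limma). The row was tested only because these strains detected it, and the bounds hold for the corrected signal: the measured difference from their mean was -2.08 with the correction used and -0.88 without background correction, and the row was called both times. In B6 and NZW the Bag2 probe was near the background, at 5.51, 5.74, and 5.40 in B6 and at 5.31, 5.17, and 5.29 in NZW. It was detected in 3 B6 mice and in 1 NZW mouse, and its difference of 0.29 (SE 0.12) did not pass the threshold.

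Among pairs of strains in this table, 2 of 27 rows passed the threshold between BALB/c and DBA1 (5.75% of all tested rows did), 2 between BALB/c and 129/svj (4.82%), and 2 between DBA1 and 129/svj (4.48%). Besides Bag2 these were rows of Dnajc5 and Hspb2, of which Hspb2 is named because it was called. Dnajc5 was at 10.46, 10.08, and 10.39 in BALB/c, at 9.23, 9.10, and 9.75 in DBA1, and at 10.14, 10.36, and 10.73 in 129/svj. All DBA1 mice were below all mice of the other 2 strains, which overlapped. The row was 0.95 higher in BALB/c than in DBA1 (SE 0.22, adjusted p = 0.0306 from limma) and DBA1 was below 129/svj by a log2 difference of -1.05 (SE 0.22, adjusted p = 0.0200 from limma). Its key is shared by both Dnajc5 probes of B6 and NZW, so which of the split pair it corresponds to is not known, and the same holds for the Hsp90ab1 row and its 3 probes. That Hsp90ab1 row was 0.47 above the mean of the sensitive strains in BALB/c (SE 0.16, adjusted p = 0.137 from limma). Hspb2, a small heat shock protein of muscle, was at 5.25, 4.98, and 5.11 in BALB/c, at 5.42, 5.01, and 5.12 in DBA1, and at 5.94, 6.04, and 5.75 in 129/svj. It was detected in the 129/svj mice only, at least 1.17-fold higher than in either of the other strains (adjusted p = 0.0153 and 0.0254 from limma), and it was tested only because those mice detected it.

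Hsp110 and Hspa1b, both stress-inducible, varied widely between the mice of a strain in this table. Hsp110 was at 10.93, 11.76, and 11.91 in BALB/c, at 10.96, 11.44, and 9.42 in DBA1, and at 11.33, 11.41, and 9.88 in 129/svj. Mouse 3 of DBA1 and mouse 3 of 129/svj were the lowest of all 9 and mouse 3 of BALB/c the highest. The standard deviation within strains was 0.84, larger than that of 99.2% of all tested rows, and the difference of BALB/c from the mean of the sensitive strains was 0.79 (95% interval -0.27 to 1.85, adjusted p = 0.419 from limma). Hspa1b, a stress-inducible Hsp70, was at 5.78, 7.39, and 7.21 in BALB/c, at 6.64, 6.81, and 4.94 in DBA1, and at 6.19, 5.53, and 5.61 in 129/svj. Again mouse 3 of DBA1 was the lowest, and the strains overlapped. The row was detected in 3 BALB/c mice and in 2 mice each of DBA1 and 129/svj, so its lowest levels are not above background. The within-strain standard deviation was 0.81 and the difference 0.84 (95% interval -0.18 to 1.86, adjusted p = 0.364 from limma). The other Hspa1b row was detected in none of the 9 mice and the Hspa1a row in 1, so neither was tested. Hspa8 moved over a narrower range, with 14.23, 14.49, and 14.39 in BALB/c, 14.36, 14.46, and 14.02 in DBA1, and 14.45, 14.35, and 14.09 in 129/svj. Its lowest mice were the same 2, mouse 3 of DBA1 and mouse 3 of 129/svj. Hspa12b, an Hsp70 relative of endothelium that is named after its values were seen, had a within-strain standard deviation of 0.65 and its lowest level, 5.31, in mouse 3 of DBA1, where 2 of 3 mice detected it, and its highest, 7.59, in mouse 3 of BALB/c. The median standard deviation within strains was 0.23 for the 27 chaperone rows and 0.24 for all tested rows, so the spread was wide in these 3 genes and not in the median member. Bag3, also inducible by stress, had a within-strain standard deviation of 0.20. Mouse 3 of DBA1 was the lowest of 9 mice in 7 of the 27 rows (25.9%), and in 19.4% of all tested rows. For mouse 3 of 129/svj this was so in 6 of the 27 rows (22.2%), and in 13.8% of all tested rows.

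**Figure D3:**
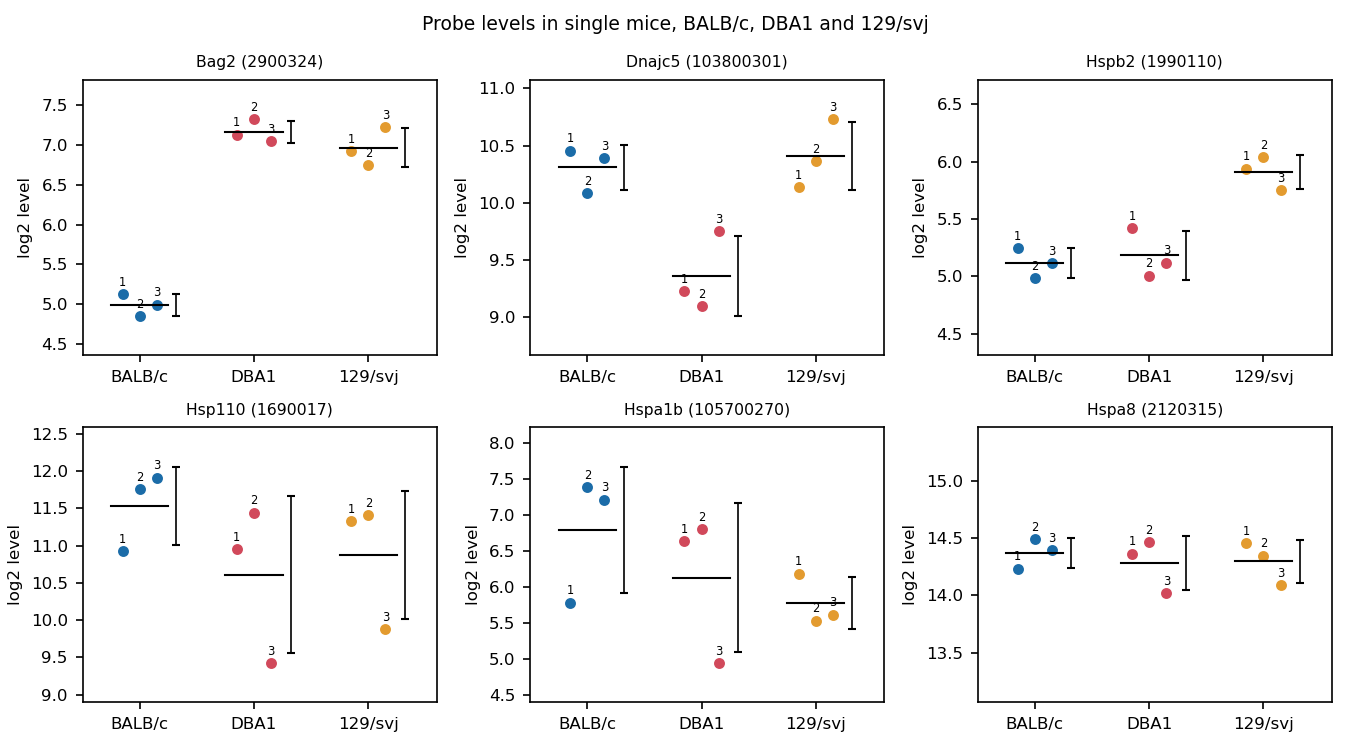
Log2 level (vertical axis) of 6 chaperone rows in each mouse of BALB/c, DBA1, and 129/svj, with the number of the mouse at each point, the strain mean as a line, and the SD of 3 mice as a bar. Bag2 separates BALB/c from both other strains, Dnajc5 separates DBA1, and Hspb2 separates 129/svj, while for Hsp110 and Hspa8 mouse 3 of DBA1 and mouse 3 of 129/svj lie lowest.

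Markers of other cells also varied between these mice. Cd14, the macrophage gene of the list that was paired in this table (1 of 5), was at 138, 103, and 130 on the linear scale in BALB/c, at 527, 875, and 1326 in DBA1, and at 198, 134, and 704 in 129/svj, highest within each sensitive strain in mouse 3. It was lower in BALB/c than in the mean of DBA1 and 129/svj by a log2 difference of -1.95 (SE 0.47, adjusted p = 0.0371 from limma). The summed proximal tubule signal of 5 rows, 4 of them detected in at least 3 mice and Slc34a1 the brightest, was lowest in mouse 3 of 129/svj (17168) and mouse 3 of DBA1 (20728) and ran from 23577 to 29715 in the other 7 mice. The thick limb and distal tubule sum of 4 rows, 2 of them detected in at least 3 mice and Pvalb the brightest, was 1189, 600.0, and 358 in DBA1 and 693 in mouse 3 of 129/svj, and ran from 3251 to 4393 in the other 5 mice. The neutrophil gene S100a8 was at 1027 in mouse 3 of 129/svj and at 28.9 to 345 in the other 8 mice. The muscle and fat sum of 3 rows, led by Adipoq, was 629.6 in mouse 3 of BALB/c and 472 in mouse 3 of 129/svj, and ran from 93.8 to 185 in the other 7 mice. The immediate-early genes, a list described below, were summed over 5 rows, 2 of them detected in at least 3 mice and Ier3 the brightest. This sum was 2205, 2957, and 2358 in DBA1 and 2868 in mouse 3 of 129/svj, and ran from 1145 to 1807 in the other 5 mice. The part of these in the Hsp110 pattern, and in the lower Dnajc5 level of DBA1, was not tested. With mouse 3 of DBA1 left out, 6 of 27 rows (22.2%) in place of 3 (11.1%) passed the threshold in some pair of strains, where the share of all tested rows went from 9.38% to 10.4%, the added rows being Bag4, Hspa12b, and Dnajb9.

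Promoter sequence is shown for Hsp110 and Hspa1b because they had the widest spread between mice and are known targets of heat shock factors. The letters searched were GAANNTTC and TTCNNGAA, the paired units of the heat shock element, each of which reads the same on both strands and which can overlap each other, in the 250 bases before each RefSeq start (build GRCm38.p6). Of 85 promoter windows found for 66 of the chaperone genes 15 held a match (17.6%), as did 12.8% of all 32851 windows. The windows of Dnajb1 and Bag3, also named above as induced by heat shock, held no match. A match is a description of letters, not of binding. Stretches of 100 bases are given 5′ to 3′, with the matches in capitals, for Hsp110 (Hsph1, chr5:149636337-149636436, minus strand), Hspa1b (chr17:34959289-34959388, minus strand), and, as a further inducible gene, Hspb1 (chr5:135887769-135887868, plus strand).
Hsph1: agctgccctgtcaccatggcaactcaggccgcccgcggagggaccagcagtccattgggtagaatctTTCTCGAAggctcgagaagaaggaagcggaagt
Hspa1b: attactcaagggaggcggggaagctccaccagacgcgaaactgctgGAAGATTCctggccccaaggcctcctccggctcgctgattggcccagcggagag
Hspb1: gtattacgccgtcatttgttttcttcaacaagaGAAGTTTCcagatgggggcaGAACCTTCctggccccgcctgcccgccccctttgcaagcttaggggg
The Hsph1 stretch ends at the base before the start, and the others end 50 bases farther upstream.

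Both within-table differences were set side by side for the paired probes, of which 22 of 35 were tested. Averaged over the tables, 4 of the 22 passed the threshold in limma (1 above and 3 below 0), which is 18.2%, where 13.4% of all 6896 tested pairs passed. Of the 22 probes, 18 were detected in at least 3 mice of each table, and the signs of the others (Pdia2, Hspa1a, Dnajb6, and Hspa1b) rest in part on background. None of the 18 was called within both tables, as were 3.34% of all 4756 pairs detected in this way. The 18 held 5 that were above 0 in both tables, 1 below 0 in both, and 12 (66.7%) of opposite sign, where 48.3% of the 4756 pairs were of opposite sign. Dnajc19 was the member nearest to a shared difference: it was -0.67 between B6 and NZW and -0.40 for BALB/c relative to the averaged DBA1 and 129/svj. In the second table its levels were 6.76, 6.76, and 6.38 in BALB/c, 7.24, 7.16, and 6.96 in DBA1, and 6.99, 7.29, and 6.53 in 129/svj. All BALB/c mice were below all DBA1 mice, while mouse 3 of 129/svj lay among the BALB/c mice. The mean over the tables was -0.54 (SE 0.12, adjusted p = 0.00695 from limma), and -0.33 without background correction, still called. With the strain as a random block it did not pass the threshold.

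The other calls of the mean came from 1 table. Bag2 was called (adjusted p = 1.03e-05 from limma) through the BALB/c mice, in which it was undetected, so that no size is given for its mean. Pdia2 was called (adjusted p = 0.0382 from limma) through B6 and NZW, where it was at -1.10, while its row in the other table was detected in 1 of 9 mice. Probe ILMN_1239188 of Dnajb6, a J protein that keeps glutamine-rich proteins from aggregating, was at 0.03 in B6 against NZW and was called (adjusted p = 0.0260 from limma) through a row detected in none of the 9 mice of the BALB/c table, so its call rests on background signal. No size is given for either mean. A test of the difference between the within-table differences was passed by 3 of the 22 (Bag2, Pdia2, and Dnajb6, each undetected in a group it compares), where 11.8% of all tested pairs passed. Mice of an inbred strain share a genome, and with the strain as a random block none of the 22 passed (3 had an unadjusted p below 0.05). The share of all tested pairs that passed in that fit is not given here. The count is therefore not read as particular to the chaperones.

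**Figure D4:**
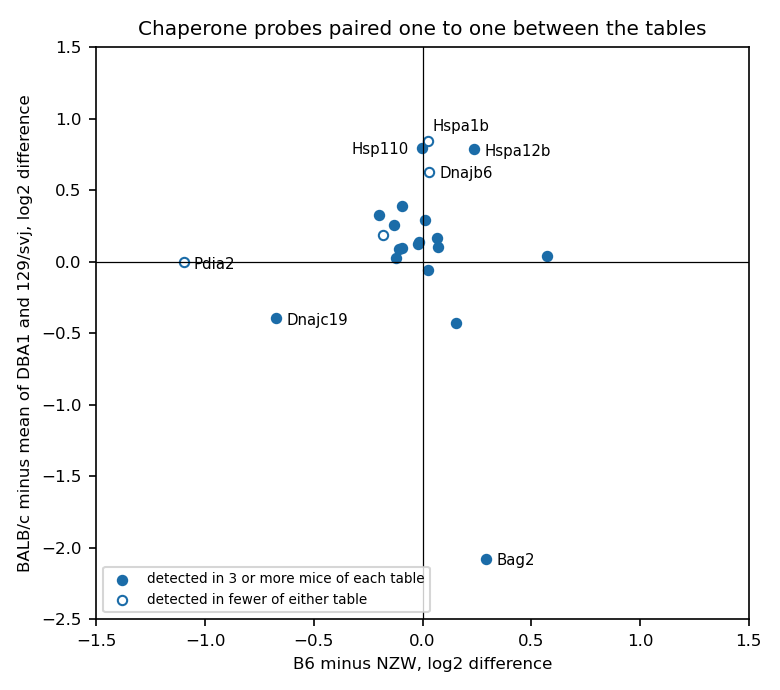
Log2 difference of BALB/c from the averaged DBA1 and 129/svj (vertical axis) against that between B6 and NZW (horizontal axis) for the 22 chaperone probes paired between the tables and tested. Open points were detected in fewer than 3 mice of either table, and among the filled points Dnajc19 is the one below 0 on both axes.

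Genes that work with the chaperones were read as lists. Of 28 tested probes for heat shock factors and cytosolic co-chaperones, 1 was higher and 4 were lower in B6 than in NZW (17.9%, where 18.8% of all tested probes passed). None of the 7 rows tested in the other table passed (1 had an unadjusted p below 0.05), where 5.99% of all tested rows did. Hsf2, a heat shock factor, was 0.71 higher in B6 (SE 0.18, adjusted p = 0.0276 from limma). Unc45a, an Hsp90 co-chaperone, was lower on both of its probes, by log2 differences of -0.48 and -0.49, and Grpel1, the exchange factor of mitochondrial Hsp70, was at -0.86 (SE 0.23, adjusted p = 0.0342 from limma). The remaining call, Pfdn1, a prefoldin subunit, was detected in NZW only, at least 1.23-fold higher than in B6. It was tested only because the NZW mice detected it.

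Of 34 tested probes for folding and the unfolded protein response in the endoplasmic reticulum, 1 was higher and 6 were lower in B6, which at 20.6% is close to the 18.8% of all tested probes. Atf4, a transcription factor of that response, was detected in all B6 mice and in no NZW mouse on probe ILMN_1223734, at least 4.31-fold higher in B6 (adjusted p = 6.12e-07 from limma). The probe was tested only because the B6 mice detected it, and Atf4 was at 0.00 on its other probe, ILMN_2642681 (SE 0.14, adjusted p = 0.991 from limma). Lower were Myd116 (now Ppp1r15a), which restores translation after stress, at -0.82 (SE 0.14), Eif2ak3, the kinase PERK, at -0.84 (SE 0.19), and Canx, Fkbp11, Herpud1, and Sel1l by log2 differences of -0.37 to -0.48. The Eif2ak3 probe was near the background, at a mean level of 5.74, and was detected in 5 of 6 mice. In the table of BALB/c, 1 of 10 rows passed, where 5.99% of all tested rows did, P4hb, a disulfide isomerase outside the symbol rule, at -0.43 (SE 0.11, adjusted p = 0.0481 from limma). Of the immediate-early genes, which respond to handling of tissue as well as to stress, 1 of 14 tested probes was lower in B6, where 18.8% of all tested probes passed. It was Jun, at -0.78 (SE 0.15). An unadjusted p below 0.05 was reached by 4 of the 14, and by 32.3% of all tested probes. None of the 2 rows in the BALB/c table passed (1 had an unadjusted p below 0.05), where 5.99% of all tested rows did. The median differences of the chaperone partners, the endoplasmic reticulum genes, and the immediate-early genes between B6 and NZW were -0.03, 0.02, and -0.22, against -0.04 for all tested probes.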

How the data were processed

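Kidney cortex RNA had been hybridised to Illumina mouse BeadChip arrays, 18 arrays of 15 mice. The authors deposited intensity values without normalization in a pair of tables, with a detection p-value and a bead count per probe and array, and no gene names in the table of BALB/c, DBA1, and 129/svj. The array methods are given in an earlier study and were not used here, and the normalization is not given in the sources used here. The symbol rule for the members used no values, but the rule and the gene lists were set with earlier results of these data known.

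Intensities were corrected by the normexp method of limma 3.58.1 (R 4.3.3) (offset 16, with the background estimated from the deposited detection p-values), quantile normalized within each table, and taken to log2. Levels of different probes were not compared, except to name the brightest probe of a summed list. Mice of a table shared 1 estimate of the spread (lmFit and eBayes), with 1 coefficient per strain, and p-values were adjusted by Benjamini-Hochberg over all tested probes. The probes of both tables were joined by unique search keys (19886 pairs). For a gene or list in the BALB/c table only rows with such a key were used. Where a probe was undetected in every mouse of a strain, a bound was computed from the lowest signal detected on each array. Named members were the 8 largest called differences in each direction of each main comparison, and the main inducible and constitutive chaperones whether called or not. Other members named with values or as calls (Hspb2, Hspa12b, Bag4, Dnajb9, and Dnajb12) were chosen after their values were seen.

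Promoters were RefSeq sequences, and symbols were updated through RefSeq. Python 3.11.15, pandas 2.3.3, and matplotlib 3.10.9 were used. The procedure was tested on simulated data. Replicate numbers were not used to pair mice: the deviations of mice with the same number had correlations of -0.26 to 0.39. Those of mice with unlike numbers ran from -0.42 to 0.40. Between DBA1 and 129/svj all mice with the same number correlated positively, at 0.19, 0.10, and 0.39. The precision is limited by 3 mice per strain and by the number of arrays, and the labels do not say how the mice of a strain were handled, so p-values measure the spread between these samples. Other backgrounds, scalings, filters, tests, and mice left out were tried. Some results for marker genes are not reported here.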

Additional observations from a re-analysis of the deposited data

Results flagged for a closer look

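The log2 difference of BALB/c from the averaged DBA1 and 129/svj was set against that between B6 and NZW for each paired chaperone probe, and in 3 cases the difference of these differences passed an adjusted p of 0.05 in limma. For Bag2 (ILMN_1234419) it was -2.37 (adjusted p = 5.85e-07): the probe was undetected in all 3 BALB/c mice and in 2 of 3 NZW mice, so the value shows a direction and its size cannot be read. For Pdia2 (ILMN_1215125) it was 1.09 (adjusted p = 0.0444), which restates the B6 and NZW difference, since the gene was detected in 1 of 9 mice of the other table. For Dnajb6 (ILMN_1239188) it was 0.59 (adjusted p = 0.0479), and as the paired row was detected in none of those 9 mice the value rests on background signal and is not a measured difference. The tables hold different strains and were normalized separately, so strain and table cannot be told apart in these differences.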

How the results depend on the processing

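Counts of chaperone probes called were 9 for B6 against NZW, 1 for BALB/c against the mean of DBA1 and 129/svj, 3 for pairs of strains in that table, and 4 for the mean over the tables. With 1 mouse left out in turn they ran from 5 to 9 (5 without mouse 1 of B6 and 5 without mouse 2 of B6), from 1 to 1, from 2 to 6 (6 without mouse 3 of DBA1), and from 2 to 4 (2 without mouse 2 of BALB/c, mouse 2 of B6, or mouse 3 of B6). These fits hold fewer mice, and lower counts among them are not read as particular to the chaperones. With a replicate block the counts were 7, 1, 3, and 4. The share of all tested probes passing is not given here for this fit. Nor is it given for the changes of background, detection filter, and test below, or for the 75th percentile scaling. Differences between these counts and the main ones are therefore not read as particular to the chaperones. With the tables normalized together over paired probes, fewer probes were tested and B6 against NZW gave 2 and BALB/c 3. Of all tested pairs, 9.83% and 9.64% passed. The BALB/c count was 2 without background correction, 2 without a filter on detection, and 2 against DBA1 or 129/svj alone, and 4 by the methods' t-test unadjusted. That test with Benjamini-Hochberg adjustment gave 4 for B6 against NZW, and it was not run for the mean over the tables. With detection required in every mouse, Bag2 was not tested, and the count was 0 for BALB/c in limma (6 with an unadjusted p below 0.05), 1 for pairs of strains, and 1 for the mean. With strain as a random block the mean over the tables gave 0 in limma (3 with an unadjusted p below 0.05). No share of all tested pairs is given for that fit, so this count is not read as particular to the chaperones. Scaling each array to its 75th percentile moved the share of all called probes that were higher in B6 from 49.0% to 37.3%, with 3 chaperone probes higher and 8 lower. With the tables normalized together it was 59.4%, with 0 higher and 2 lower. The median of all tested probes moved by less than 0.1. No named probe changed direction past the threshold: of 266 values for called probes 216 were called again and 50 were not, among them Dnajc18 (called in 6 of 16 alternatives), Dnajc16 (8 of 16), Hspb6 (10 of 16), and Pdia2 (12 of 17), while Dnajc12, Hsp90ab1 (ILMN_1233733), Dnajc5 (ILMN_2501026), and Bag2 (in BALB/c) were called in every alternative run. Low signals depended most on the background correction: without it Bag2 was at -0.88 in place of -2.08, Pdia2 in B6 against NZW at -0.54 in place of -1.10, and for the mean over the tables Dnajc19 at -0.33 in place of -0.54.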
